A study of Mus musculus with 35 samples.

Results

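Microglia sorted from the spinal cord of mice in recovery were compared with microglia of transgenic mice that had never left doxycycline. The comparison takes every library labelled recovery and every library of the rNLS8 controls, 13 of the 35 libraries of the series: 7 of recovery (replicates 2, 3, 4, 5, 7, 8 and 9) and 6 controls (replicates 4 to 9). Bulk RNA sequencing measured gene expression in each library, deposited as estimated counts per gene. The question was which differences were present after the transgene had been silenced again.

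Both groups were rNLS8 mice, genotype (+/+), carrying NEFH-tTA and tetO-hTDP-43 on a mixed C57BL/6J X C3HeJ F1 background, and all were raised on doxycycline until 8 to 12 weeks of age. Recovery mice (Recovery) then went 6 weeks off doxycycline, which turns the transgene on, and 1 week back on it. The rNLS8 controls (Control) stayed on doxycycline throughout. Recovery held 4 females and 3 males and the controls 3 of each. For reference, 8 wild-type (-/-) littermates were set beside them: 3 that had followed the recovery diet, and 5 off doxycycline for 2 weeks (4 mice) or 6 weeks (1 mouse). The 7 late disease libraries came from rNLS8 mice taken after 6 weeks off doxycycline. The neurofilament heavy chain promoter that drives the transactivator is a neuronal one, so the cells measured here are not those meant to carry the human protein. Cells were collected by CD11b and CD45 from dissociated whole cord after a Percoll step. Such a sort can also hold blood-borne myeloid cells.

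Microglia are the resident macrophages of the central nervous system and keep an identity programme (P2ry12, Tmem119, Sall1) that depends on TGF-beta and CSF1 receptor signalling. Around dying neurons and debris they can enter a disease-associated state, in which lipid-handling, lysosomal and phagocytic genes such as Apoe, Lpl, Cst7, Itgax and Axl are raised, in part through the receptor TREM2.

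Several technical measures differed between the groups, and some of them separated the groups completely. All 7 recovery libraries carried the date code 0803 and all 6 controls 0810, so date and group cannot be told apart. The 3 wild-type mice of the recovery diet also carried 0810, and the other 5 wild-type mice carried other dates. Counts summed to 16.1 to 20.4 M in recovery (mega, median 19.1) and 14.8 to 17.3 M in the controls (median 16.2; two-sided exact permutation test, p = 0.012). Genes with any count numbered 15939 to 16678 against 14156 to 15778 (exact permutation p = 0.0012). The share of the TPM total that lay outside the deposited table was 4.09 to 8.86% in recovery, 14.4 to 30.8% in the controls and 13.9 to 15.2% in the wild-type mice of the same diet, against 3.76 to 11.4% in those of other dates (recovery against controls, exact permutation p = 0.0012). The part of these measures in the results below was not tested beyond the references and covariates given beside them. The sorting antigen genes Itgam (1314 to 2058 against 1032 to 1576 CPM, counts scaled to library size) and Ptprc (364 to 511 against 330 to 504 CPM) did not pass the test (adjusted p = 0.29 and 0.911). Nefh, the gene whose promoter drives the transactivator, was listed at 0 in all 7 recovery libraries and reached 0.129 CPM in the controls. Mouse Tardbp was at 37.6 to 69.4 CPM in recovery and 34.5 to 50.2 CPM in the controls (adjusted p = 0.663). The human transgene was not analysed here.

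edgeR's quasi-likelihood test with Benjamini-Hochberg adjustment, with sex as a covariate, called 295 of 12479 tested genes higher in recovery (2.36%) and 181 lower (1.45%) at an adjusted p under 0.05. Of these, 166 and 47 differed by at least 2-fold. Of all tested genes, 223 (1.79%) lay higher in every recovery library than in every control and 100 (0.801%) lower. The median log2 change of all tested genes was 0.0052. Single libraries mattered: without Recovery 3 the higher count was 150, without Recovery 2 it was 159, and 187 without Recovery 9 and 193 without Recovery 7. The lower count was 80 without Recovery 2, 95 without Recovery 3, 115 without Control 5, 119 without Recovery 9 and 120 without Recovery 7. In all 13 fits that leave out 1 library, 125 genes stayed called higher and 74 lower, and the genes described first in each paragraph below are among them unless stated. In bulk libraries fewer cells of a type and less RNA per cell cannot be told apart.

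Genes of the disease-associated microglial state were still high after 1 week back on doxycycline. Of 32 listed genes, all of which passed the filter on low counts, 22 rose and 0 fell (edgeR, adjusted p under 0.05), against 2.36% and 1.45% of all tested genes. Their median log2 change was 1.44, and 17 of the 32 lay higher in every recovery library than in every control. The number that rose was 21 to 23 over the fits that leave out 1 library. It was 18 against the wild-type mice of the recovery diet and 11 against those of other dates. With that share of the TPM total added as a covariate it was 4, namely Apoe, Csf1, Cd63 and Lgals3, and with the mean level of the neutrophil list as a covariate it was 2, Apoe and Spp1. Neither covariate is independent of the groups: the share does not overlap between them, and the neutrophil markers are themselves higher in recovery.

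Among the receptors and surface proteins, Itgax, the integrin chain CD11c, was at 72.1 to 103.7 CPM in recovery (median 84.5) and 9.89 to 38.1 CPM in the controls (median 17.9). No recovery library reached down to the control range, and the rise was 2.12 ± 0.25 on the log2 scale (SE; adjusted p = 0.000394). Axl, a receptor tyrosine kinase that takes up dying cells, stood at 209.9 to 390.1 against 26.4 to 93.3 CPM and rose by 2.52 ± 0.32 (adjusted p = 0.000791). Clec7a, the beta-glucan receptor dectin-1, stood at 114.6 to 280.8 against 15.4 to 66.7 CPM and rose by 2.34 ± 0.33. Both separated the groups completely. The tetraspanin gene Cd63 rose by 1.08 ± 0.12, with 660.6 to 911 against 243.9 to 445.5 CPM. Cd68, a macrophage endosomal glycoprotein, rose by 0.39 ± 0.08, with 1232 to 1725 against 908.5 to 1243 CPM. Trem2 itself, at 1337 to 1838 against 1173 to 1650 CPM, did not pass the test (log2 change 0.17 ± 0.10, adjusted p = 0.376), nor did its adaptor Tyrobp (0.32 ± 0.11, adjusted p = 0.124). Cd9, another tetraspanin gene, rose by 0.59 ± 0.14, and its call was lost without Control 5 or Control 8 (adjusted p up to 0.0691).

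Several secreted members of the list rose. Spp1, osteopontin, was at 309 to 1171 CPM in recovery (median 854) and 11.5 to 101.1 CPM in the controls (median 27.8), a log2 change of 4.27 ± 0.45 (adjusted p = 0.000192). The lowest recovery library, Recovery 7, was above the highest control, Control 9. Csf1, a ligand of the CSF1 receptor on which microglia depend for survival, was at 51.0 to 120.7 CPM (median 81.6) against 9.05 to 20.4 CPM (median 12.3), a rise of 2.61 ± 0.24 (adjusted p = 5.81e-05). Its receptor gene Csf1r did not pass the test (log2 change -0.06 ± 0.08, adjusted p = 0.73). The growth factor gene Igf1 was near the limit of detection in the controls, at 0 to 0.61 CPM, and stood at 2.97 to 13.8 CPM in recovery (log2 change 5.16 ± 0.80, adjusted p = 0.00278). The galectin gene Lgals3, at 23.5 to 69.1 against 2.46 to 12.96 CPM, rose by 2.70 ± 0.32. Lyz2, which encodes lysozyme and is abundant in monocytes and neutrophils as well, rose by 2.62 ± 0.30. Its 3 highest recovery libraries, Recovery 9, Recovery 3 and Recovery 7, at 2073, 1898 and 1427 CPM, were also the 3 highest in neutrophil markers.

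Apoe, which encodes the lipid carrier apolipoprotein E (chromosome 7, 19696109 to 19699188, mm10), had the smallest adjusted p of the genes named here. It was at 1037 to 3245 CPM in recovery (median 2391) and 26.2 to 69.1 CPM in the controls (median 55.8). The log2 change was 5.44 ± 0.31 (adjusted p = 3.09e-07), and it ran from 5.27 to 5.58 when 1 library was left out. The reference changed its size: the wild-type mice of the same diet stood at 29.3 to 53.4 CPM (log2 change 5.84) and those of other dates at 204 to 1112 CPM (log2 change 2.40, adjusted p = 0.0132). The lowest recovery library lay below the highest wild-type library of other dates and above all other wild-type libraries. Other lipid genes rose too. Ch25h, which makes 25-hydroxycholesterol, was at 18.0 to 135.6 against 1.22 to 7.598 CPM (log2 change 4.08 ± 0.42). Lpl, lipoprotein lipase, was at 78.0 to 511 against 11.9 to 58.8 CPM (2.88 ± 0.46), and Fabp5, a fatty acid carrier, at 3.06 to 23.02 against 0 to 0.711 CPM (5.33 ± 0.86). In the list of lipid efflux and storage, 5 of the 15 genes that passed the filter rose and 0 fell (2.36% and 1.45% of all genes). The median log2 change of the 15 was 0.17. The cholesterol exporter gene Abca1 did not pass (0.21 ± 0.24, adjusted p = 0.693). Apoc1 rose too, from 0 to 0.858 up to 1.16 to 3.78 CPM, but lost its call without Recovery 2, Control 4, Control 5 or Control 8 (adjusted p up to 0.0705).

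**Figure D1:**
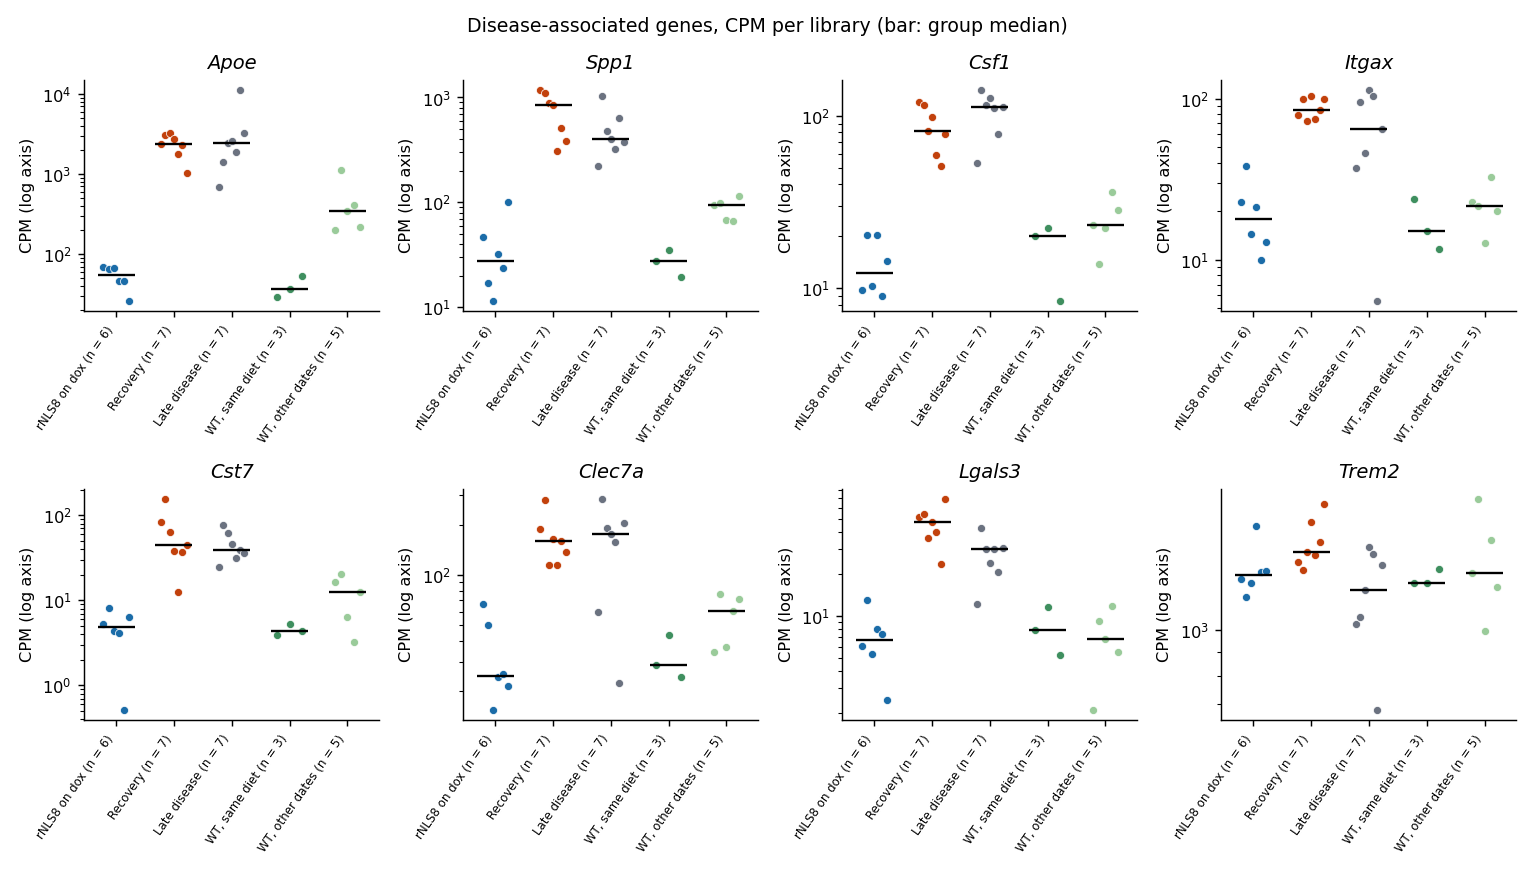
CPM per library (y axis, log scale) of 8 disease-associated genes in rNLS8 controls on doxycycline, recovery, late disease and 2 sets of wild-type mice. Each point is 1 library and the bar is the group median. Apoe lay between 1037 and 3245 CPM in recovery and between 26.2 and 69.1 CPM in the controls.

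Several lysosomal genes rose as well. Ctsb, cathepsin B, was at 6879 to 8840 CPM in recovery and 4538 to 5673 CPM in the controls, and rose by 0.60 ± 0.08 (adjusted p = 0.000692). Ctsz, cathepsin Z, rose by 0.48 ± 0.07, and the hydrolase genes Gusb and Ctsa by 0.53 ± 0.08 and 0.46 ± 0.08. None of these 4 genes overlapped between the groups. Cst7, an inhibitor of cathepsins, was at 12.6 to 155 against 0.517 to 8.07 CPM (3.51 ± 0.50, adjusted p = 0.00172), and the scavenger receptor gene Msr1 at 9.24 to 29.1 against 0.66 to 3.65 CPM (2.84 ± 0.38). Gpnmb, a glycoprotein of lysosomes under load, had 0 counts in all 6 controls and 3.15 to 16.0 CPM in recovery, at least 265-fold higher against a floor of 3 counts over the control group. In the lysosome and phagocytosis list, 7 of 32 tested genes rose and 0 fell (2.36% and 1.45% of all genes). The median log2 change of the 32 was 0.24. Ctsd, cathepsin D, did not pass (33110 to 43530 against 25780 to 34160 CPM, adjusted p = 0.0895), nor did Grn, progranulin (0.31 ± 0.09, adjusted p = 0.0787).

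Some genes of the microglial identity programme were lower in recovery. Of 32 homeostatic genes, all tested, 5 fell and 1 rose, against 1.45% and 2.36% of all tested genes, with a median log2 change of -0.12. At an unadjusted p under 0.05 there were 14, and DESeq2 called 8 lower. Tmem119 was at 6256 to 8244 CPM in recovery (median 6775) and 7737 to 9640 CPM in the controls (median 8674). It fell by 0.32 ± 0.07 on the log2 scale (adjusted p = 0.0157), and only Recovery 7 and Recovery 9 reached the control range. Against the wild-type mice of the same diet the change was -0.30 (adjusted p = 0.121) and against those of other dates -0.09 (adjusted p = 0.758). P2ry12, a purinergic receptor that guides process movement, was at 5456 to 8228 CPM (median 7192) against 7562 to 9127 CPM (median 8847). It fell by 0.38 ± 0.09 (adjusted p = 0.0249), a call lost without Recovery 2, Recovery 3 or Recovery 4 (adjusted p up to 0.0703). Slc2a5, Gpr34 and Tgfbr1 fell by 0.47, 0.53 and 0.44, and lost their calls in 8, 11 and 10 of the 13 fits that leave out 1 library (adjusted p up to 0.0782, 0.124 and 0.119). Over those fits the number that fell was 4 without Recovery 5, Control 5 or Control 7, 1 without Recovery 2 or Recovery 3, 2 without Recovery 4, Recovery 8, Recovery 9 or Control 6, and 3 without Recovery 7, Control 4, Control 8 or Control 9.

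Other genes of the programme did not pass the test. Cx3cr1, the fractalkine receptor, was at 5670 to 7527 against 6672 to 7478 CPM (log2 change -0.19 ± 0.06, adjusted p = 0.097). Sall1, a transcription factor specific to microglia within the brain's macrophages, was at 393 to 464 against 404 to 514 CPM (-0.13 ± 0.07, adjusted p = 0.364). A missed threshold does not show equal levels. The 1 homeostatic gene that rose was Fcrls, at 350 to 2274 against 94.9 to 910.7 CPM (2.34 ± 0.54, adjusted p = 0.026). The controls were set low except for Control 6, the call was lost without Recovery 2, Recovery 3, Control 4, Control 5, Control 8 or Control 9 (adjusted p up to 0.0725), and against the wild-type mice of the same diet the change was -0.49 (adjusted p = 0.704).

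**Figure D2:**
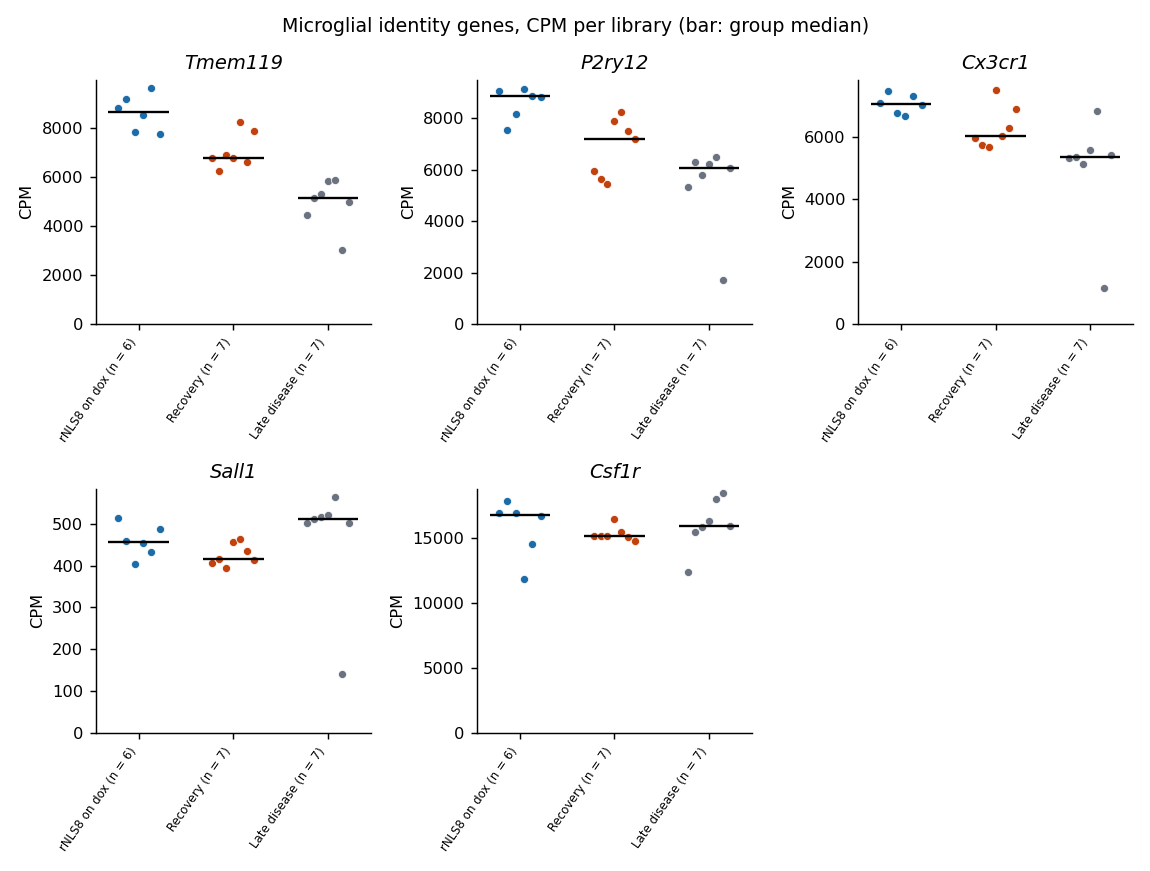
CPM per library (y axis, from 0) of 5 microglial identity genes in rNLS8 controls on doxycycline, recovery and late disease. Points are libraries and bars are group medians. Recovery Tmem119 (6256 to 8244 CPM) overlapped the controls at its upper end.

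A few genes of class II antigen presentation were higher. MHC class II molecules present peptides to helper T cells, and the invariant chain Cd74 escorts them to the endosome. Of the 11 tested genes of the list, 4 rose and 0 fell (2.36% and 1.45% of all genes), with a median log2 change of 0.33. The 4 that rose were Cd74 and the chain genes H2-Aa, H2-Ab1 and H2-Eb1. Cd74 was at 293 to 484 CPM in recovery (median 374) and 27.9 to 93.4 CPM in the controls (median 64.6), a rise of 2.65 ± 0.22 (adjusted p = 2.66e-05). H2-Ab1 was at 43.8 to 102.2 against 10.4 to 35.9 CPM, a rise of 2.01 ± 0.29. The groups did not overlap for either gene. H2-Aa was at 8.12 to 53.2 against 0.864 to 9.51 CPM (3.51 ± 0.53), where Recovery 7 fell within the control range and the other 6 recovery libraries lay above it. H2-Eb1 rose by 2.08 ± 0.53, but lost its call in 10 of the 13 fits (adjusted p up to 0.0914). The rises of Cd74 against the 2 sets of wild-type mice were 2.77 and 2.20. The class II transactivator gene Ciita stayed under the filter, at 0.0553 to 0.832 CPM in recovery and 0 to 0.576 CPM in the controls. Ctss, the protease that trims the invariant chain, did not pass (0.07 ± 0.11, adjusted p = 0.776).

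Class II genes share a conserved promoter block whose Y box is an inverted CCAAT element bound by NF-Y. The 120 bases before the RefSeq start of H2-Aa and H2-Eb1, 2 of the chain genes that rose, are shown because both hold the letters CTGATTGG, in capitals (RefSeq table, GRCm38.p6, sequences on the strand of the gene, 5′ to 3′). H2-Aa lies at chr17:34287824-34287943 on the minus strand, with the letters 51 bases before the start, and H2-Eb1 at chr17:34305747-34305866 on the plus strand, with the letters 62 bases before it.
H2-Aa: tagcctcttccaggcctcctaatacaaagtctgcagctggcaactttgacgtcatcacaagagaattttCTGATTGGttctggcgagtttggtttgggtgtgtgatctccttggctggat
H2-Eb1: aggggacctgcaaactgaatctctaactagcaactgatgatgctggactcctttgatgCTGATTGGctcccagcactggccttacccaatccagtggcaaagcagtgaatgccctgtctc
The letters were searched on both strands in the 250 bases before each start. They occurred in 3.83% of the 32851 promoters of the table, and in 3 of the 9 class II list members it held (H2-Aa, H2-Eb1 and H2-Oa). Cd74 and H2-Ab1, which also rose, were not among the 9 and were not searched. H2-Oa did not pass the test (log2 change 0.45, adjusted p = 0.136). A match of these letters describes the sequence and is not evidence of binding.

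Some chemokine genes were higher in recovery. Of 27 tested genes of the chemokine and cytokine list, 8 rose and 0 fell (2.36% and 1.45% of all genes). The median log2 change of the 27 was 0.73. At an unadjusted p under 0.05 there were 17, and DESeq2 called 12 higher. The count was 5 without Recovery 2 or Recovery 9. Ccl3 and Ccl4, which encode inflammatory CC chemokines, were at 49.7 to 142.5 and 63.8 to 146.8 CPM in recovery and at 8.54 to 18.8 and 5.56 to 26.3 CPM in the controls. They rose by 2.66 ± 0.25 (adjusted p = 5.81e-05) and 2.46 ± 0.32 (adjusted p = 0.000972), without overlap of the groups. Il1rn, which encodes the antagonist of the IL-1 receptor, was at 11.9 to 27.1 against 0 to 4.03 CPM (3.44 ± 0.72, adjusted p = 0.0166). Il1b and Tnf, the inflammatory cytokines themselves, did not pass (log2 changes 1.03 ± 0.70 and 0.83 ± 0.40, adjusted p = 0.464 and 0.277), and neither did Ccl2, which recruits monocytes (1.10 ± 0.47, adjusted p = 0.219). Ccl9 and Ccl6 rose by 1.25 ± 0.20 and 0.85 ± 0.19 against the rNLS8 controls, but differed by only 0.06 and 0.02 from the wild-type mice of the same diet. Cxcl16 rose by 0.73, a call lost in 10 of 13 fits (adjusted p up to 0.0883), and Ccl5 by 2.22, lost without Recovery 2, Recovery 9 or Control 8 (adjusted p up to 0.0763).

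Interferon-response genes gave no call in edgeR. Of 36 tested genes 0 rose and 0 fell, with a median log2 change of 0.76. At an unadjusted p under 0.05 there were 11 genes, and DESeq2 and limma on log2(TPM + 1) called 4 higher each. Ifit3, an interferon-induced gene, was at 7.49 to 54.6 against 6.40 to 21.5 CPM (0.93 ± 0.41, adjusted p = 0.227), and its spread within recovery was wide. In the complement list 3 of 13 genes rose, against 2.36% of all tested genes. They were Itgax, described above, C3, the central complement component (5.82 to 55.9 against 0.061 to 3.59 CPM, 3.76 ± 0.79, adjusted p = 0.0176), and Cfb, whose call was lost without Control 6 (adjusted p up to 0.0507). C1qa, which begins the classical pathway, did not pass (0.06 ± 0.12, adjusted p = 0.861). MHC class I genes gave 0 calls among 18 in edgeR, 3 at an unadjusted p under 0.05, with 1 higher by DESeq2 and 2 by limma, and with H2-K1 at 335 to 1408 against 289 to 609 CPM.

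Some cell division genes were higher in recovery, with 1 library far ahead. Of 30 mitosis genes, all tested, 6 rose and 0 fell (2.36% and 1.45% of all genes), and the median log2 change was 2.02. The count was 1 without Recovery 2, which leads the group, 2 without Recovery 3, Recovery 7, Recovery 9 or Control 6, 3 without Recovery 5, Recovery 8, Control 5 or Control 9, and 7 without Recovery 4. It was 4 against the wild-type mice of the recovery diet, 0 against those of other dates and 0 with either covariate, while DESeq2 called 15. The summed level of the list was 78.1 to 630 CPM in recovery, with Recovery 2 at 630 and the next library, Recovery 3, at 210, against 30.5 to 54.6 CPM in the controls. The lowest recovery library was thus above the highest control. Cenpe, a kinetochore motor, had 1.40 to 16.3 CPM in recovery, 0.538 CPM in Control 4 and 0 in the other 5 controls (5.38 ± 1.16, adjusted p = 0.0193), but its change was -2.64 (adjusted p = 0.524) once the TPM share beyond the table entered the model. Mki67, the standard marker of cycling cells, was at 2.38 to 35.7 against 0 to 2.46 CPM and missed the threshold (3.16 ± 0.89, adjusted p = 0.0615), as did Top2a and Cdk1 (adjusted p = 0.232 and 0.15). Birc5 rose by 3.09 ± 0.71 and lost its call without Recovery 2 or Recovery 3 (adjusted p up to 0.0677). Of 28 tested DNA replication genes 2 rose, Chaf1b and Rrm2, against 2.36% of all genes. Chaf1b, a histone chaperone, had 2 counts over all controls against 0.951 to 3.13 CPM in recovery, and Rrm2 lost its call in 8 of 13 fits (adjusted p up to 0.0654). Pcna did not pass (-0.03 ± 0.14, adjusted p = 0.949).

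Transcripts of neutrophils and monocytes were present in all 7 recovery libraries, in very different amounts. Of 24 neutrophil markers, 19 passed the filter, a step that markers high only in recovery could pass. Of the 19, 12 rose and 0 fell (2.36% and 1.45% of all genes), with a median log2 change of 5.46. The summed level of the list was 814 to 8162 CPM in recovery (median 2615), 520 to 873 CPM in the controls (median 545) and 687 to 1665 CPM in late disease, so the lowest recovery library lay below the highest control, Control 6. Recovery 3, Recovery 9 and Recovery 7 held the most, at 8162, 7348 and 5465 CPM, and Recovery 4 and Recovery 8 the least, at 814 and 947 CPM. In controls such as Control 5 and Control 8 few members carried the sum. These libraries summed to 545 and 537 CPM at a mean log2 CPM of -2.05 and -2.055 over the tested members. By that mean Recovery 8 (2.11) and Recovery 4 (2.865) were the lowest of recovery, below Control 6 (2.92). Camp, a granule peptide, was at 7.22 to 447 CPM (median 102) against 0 to 7.93 CPM (7.35 ± 1.35, adjusted p = 0.00868). Control 6 held the 7.93 CPM and overlapped the lowest recovery library. Cxcr2, the receptor that brings neutrophils into tissue, was at 1.49 to 22.7 against 0.066 to 0.419 CPM, without overlap (5.83 ± 0.76, adjusted p = 0.000972). Fcnb, ficolin B, had 0 counts in all controls and 0.301 to 25.0 CPM in recovery, at least 275-fold higher against the floor of 3 counts over the group. It fell below the count filter and was not called without any 1 of the recovery libraries other than Recovery 4. S100a9 and S100a8, which form calprotectin, were at 38.1 to 1417 against 0 to 55.2 CPM and 54.6 to 1701 against 0.115 to 79.6 CPM. They rose by 6.81 ± 1.53 and 6.85 ± 1.56, and lost their calls without Recovery 3, Control 5 or Control 8, and S100a8 also without Control 4 (adjusted p up to 0.0713 and 0.0725). The number of neutrophil genes that rose was 2 without Recovery 3, 4 without Control 5, 5 without Control 8, 7 without Control 4 and 15 without Control 6, and it was 13 without Recovery 3 and Control 6 together. Genes of immature granulocytes were seen too: Elane and Mpo, proteins of primary granules, had 0 counts in the controls and up to 9.71 and 4.78 CPM in recovery.

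Of 20 monocyte markers, 14 passed the filter, which markers high only in recovery could again pass. Of the 14, 7 rose and 0 fell (2.36% and 1.45% of all genes), with a median log2 change of 3.17. Chil3, a chitinase-like protein of inflammatory monocytes (chromosome 3, 106147554 to 106167564, mm10), was at 7.77 to 492.8 CPM (median 95.3) in recovery. It was at 2.32 CPM in Control 6 and at most 0.0646 CPM in the other 5 controls (8.98 ± 1.299, adjusted p = 0.00184). Ly6c2, which marks classical monocytes and has a close paralog that can share its reads, was at 0.502 to 43.1 against 0 to 0.793 CPM (7.04 ± 1.35, adjusted p = 0.0106). Fn1, fibronectin, was at 8.73 to 41.5 against 0 to 3.83 CPM, without overlap (3.56 ± 0.63, adjusted p = 0.00731). Ccr2, the receptor of the monocyte chemokine CCL2, did not pass: it was at 0.1003 to 17.2 against 1.73 to 3.70 CPM (0.71 ± 0.76, adjusted p = 0.672). The count that rose was 3 without Recovery 3, and 4 without Recovery 7, Recovery 9, Control 4 or Control 9. The summed monocyte level, 99.1 to 747 against 21.8 to 59.7 CPM, did not overlap between the groups and was highest in Recovery 3 and Recovery 9, the libraries with the most neutrophil transcript.

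**Figure D3:**
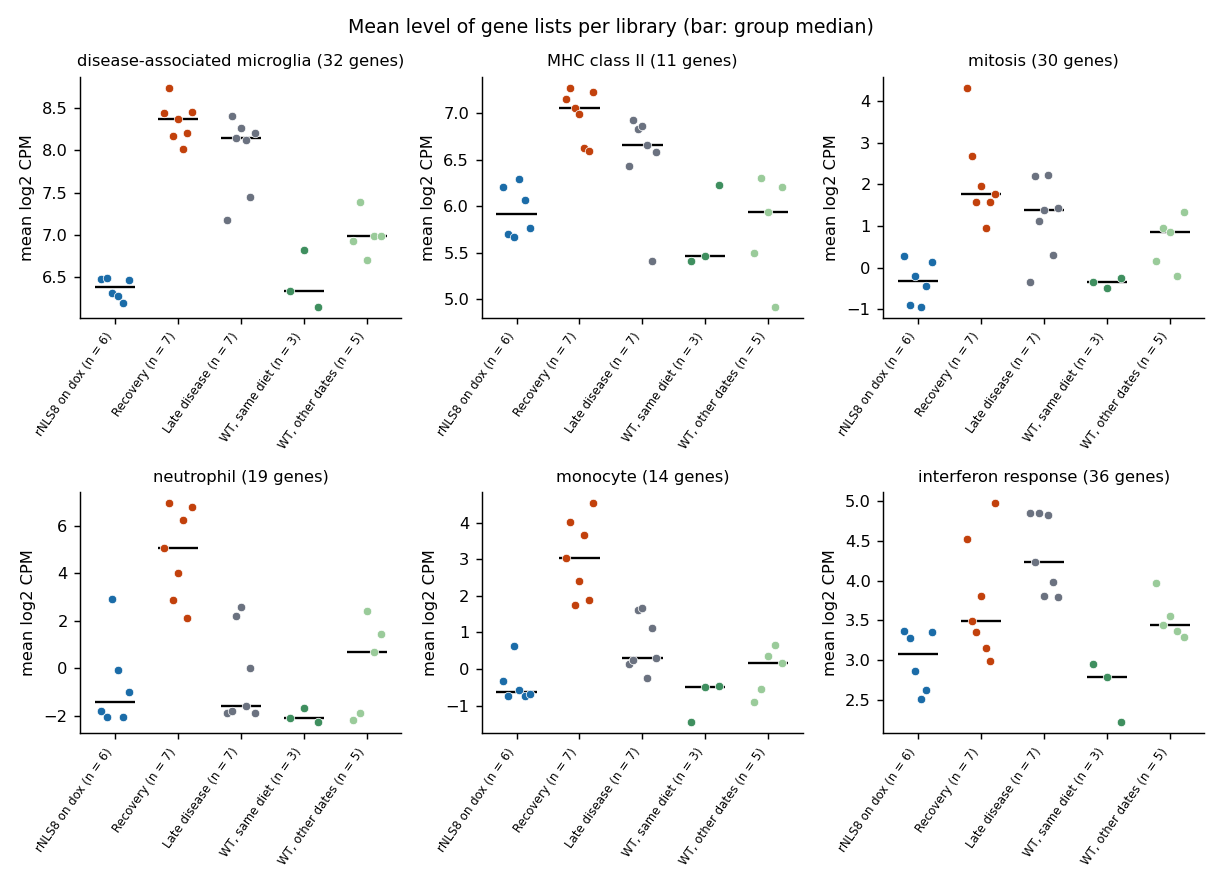
Mean log2 CPM of 6 gene lists per library (y axis) in the rNLS8 controls, recovery, late disease and 2 sets of wild-type mice. Points are libraries and bars are medians. The disease-associated list lay at 8.01 to 8.73 in recovery and 6.19 to 6.49 in the controls, while the neutrophil list spread from 2.11 to 6.95 within recovery.

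Markers of other cell types stood at very different levels, and a few differed between the groups. The astrocyte list summed to 1035 to 2740 CPM in recovery and 219 to 1835 CPM in the controls. Of 12 tested genes of border macrophages, which line the meninges and vessels, edgeR called 0, with 5 at an unadjusted p under 0.05, DESeq2 calling 2 higher and 1 lower, and limma on log2(TPM + 1) 4 higher. Their median log2 change was 1.14, and the defining genes Mrc1, Cd163 and Siglec1 did not pass (adjusted p = 0.396, 0.276 and 0.466). The T cell receptor and CD3 genes Trac, Trbc1, Trbc2, Cd3e and Cd3g had 0 counts in all 13 libraries, and the 1 T and NK list gene that passed the filter was Ccl5. The summed level of that list was 4.04 to 18.3 CPM in recovery and 0.905 to 3.17 CPM in the controls. The B cell gene Pax5 and the endothelial genes Cldn5 and Tek also had 0 counts in all 13. edgeR called 0 of 8 dendritic cell genes, 0 of 6 astrocyte genes and 0 of 3 B cell genes, with 2, 2 and 0 at an unadjusted p under 0.05, and no erythroid gene passed the filter. DESeq2 called 1 dendritic cell gene higher and 1 astrocyte gene in each direction, and limma on log2(TPM + 1) called 1 astrocyte gene higher. Of 4 tested endothelial and mural genes 1 rose, Flt1, a call lost in 7 of 13 fits (adjusted p up to 0.0801). The 1 neuron gene tested was not called, and the summed neuron list was at 0.958 to 4.20 CPM in recovery and 0.0576 to 2.90 CPM in the controls. Oligodendrocyte transcript summed to 2087 to 2902 against 1175 to 2085 CPM, with a narrow gap, and to 1716 to 3423 CPM in the wild-type mice of other dates. The mean log2 CPM of the 8 tested members overlapped, at 3.76 to 4.79 against 2.92 to 4.09, and their median log2 change was 0.115. The single member called was the progenitor gene Cspg4 (5.46 ± 1.05, adjusted p = 0.0106).

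Of 81 tested genes of cytosolic ribosomal proteins, 13 rose and 0 fell (2.36% and 1.45% of all genes). The median log2 change of the 81 was 0.33. The steps were small, such as 0.71 ± 0.13 for Rpl10a, 0.65 ± 0.12 for Rpl41 and 0.52 ± 0.11 for Rpl14. The count ran from 4 without Recovery 2 to 25 without Control 7, and was 6 without Recovery 3, Recovery 7, Recovery 9 or Control 5, 7 without Control 8 and 8 without Control 6. These genes have many processed pseudogenes, which makes the estimates uncertain. Of 88 nuclear genes of oxidative phosphorylation edgeR called 0 (11 at an unadjusted p under 0.05, 0 by DESeq2, 47 higher by limma on unscaled TPM and 0 after TMM scaling, median log2 change 0.10), and of the 13 mitochondrially encoded genes 0 (1 at an unadjusted p under 0.05, 0 by DESeq2 and limma, median -0.21). Pkm, pyruvate kinase, rose by 0.72 ± 0.10 (359 to 521 against 230 to 268 CPM, adjusted p = 0.0014), whereas Ldha, which makes lactate, did not pass (adjusted p = 0.17). Of 23 tested heat shock genes 3 fell, against 1.45% of all genes. That count was 1 without Recovery 2, Recovery 3, Recovery 4, Recovery 5, Recovery 8, Recovery 9 or Control 8, and 2 without Control 5, Control 7 or Control 9. Dnaja1, a cochaperone of HSP70, was at 106 to 176 against 164 to 228 CPM (fell by 0.57 ± 0.12, adjusted p = 0.0206), and Dnajb1 and Chordc1 lost their calls in 10 and 8 of 13 fits (adjusted p up to 0.0943 and 0.0814). In the list of ALS genes 1 of 25 rose, a share near the 2.36% of all tested genes. It was Vapb, a membrane protein of the endoplasmic reticulum, by 0.76 ± 0.14 (37.0 to 52.3 against 15.1 to 37.9 CPM, adjusted p = 0.00938).

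**Figure D4:**
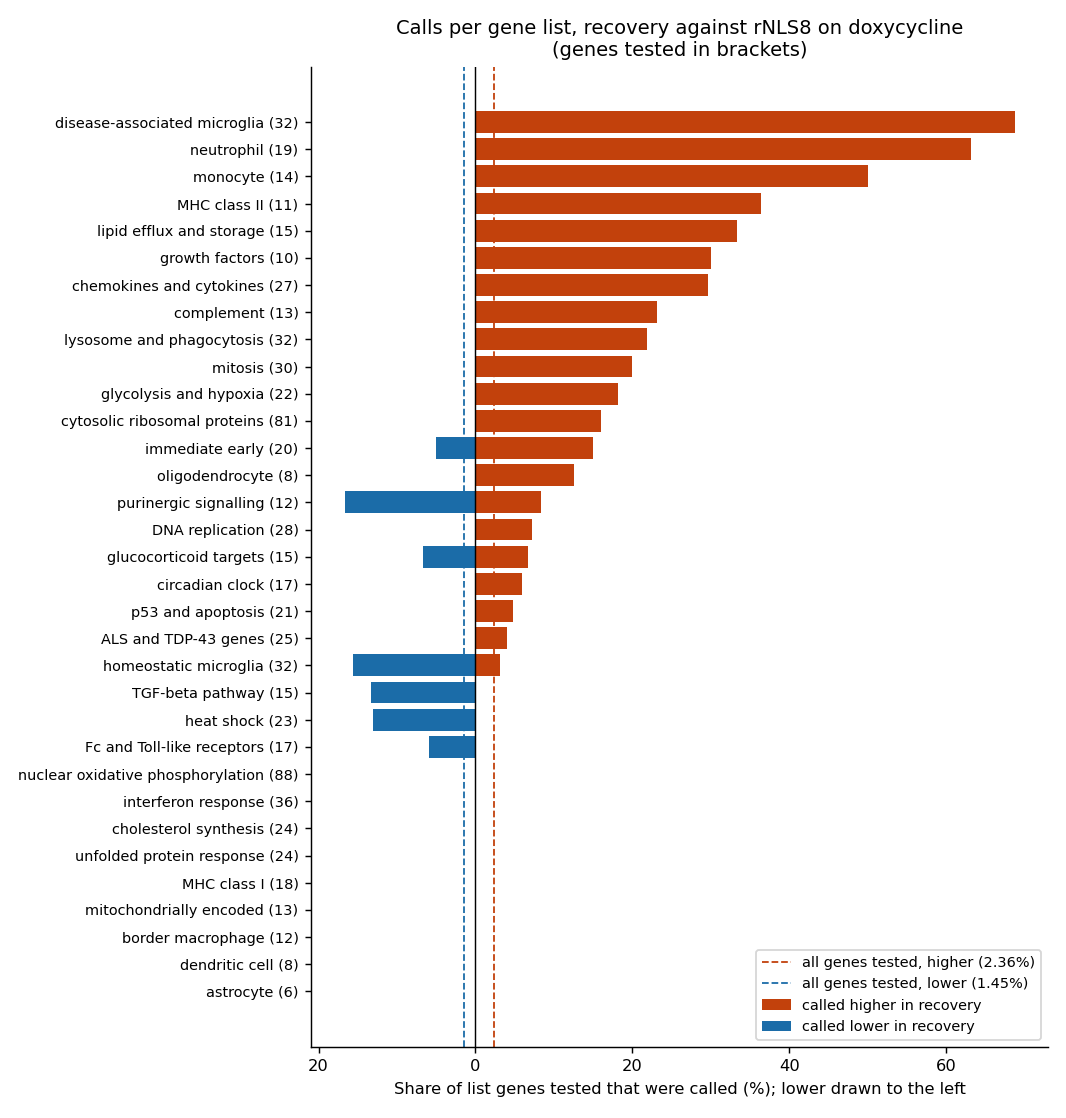
Share of tested genes called higher and lower in recovery (x axis, percent) in each gene list (y axis), with the share over all tested genes (2.36% higher, 1.45% lower) as reference lines. The disease-associated list had 22 of 32 genes called higher.

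Several genes outside the groups above were among those of largest change. Rab7b, a small GTPase of late endosomes, was at 9.65 to 22.9 CPM in recovery (median 16.2) and 0 to 0.905 CPM in the controls (5.19 ± 0.73, adjusted p = 0.00153). Mmp12, the macrophage elastase, was at 11.2 to 37.9 against 0.0646 to 6.28 CPM (4.42 ± 0.79, adjusted p = 0.0076). Neither overlapped between the groups. Cd300lb, an activating receptor of myeloid cells, rose by 4.01 ± 0.92 and lost its call without Recovery 3 (adjusted p up to 0.073). In the growth factor list 3 of 10 tested genes rose, Csf1, Igf1 and Vegfa, against 2.36% of all genes. The median log2 change of the 10 was 0.43. Vegfa, which acts on vessels, had 1 count over all controls and 0 to 4.03 CPM in recovery. It fell below the count filter in each of the 7 fits without a recovery library, and 2 genes of the list were called in those fits.

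Other lists held few calls, to be read against 2.36% higher and 1.45% lower over all tested genes. In purinergic signalling 1 of 12 tested genes rose and 2 fell. P2ry14, a receptor for UDP-sugars, had 0 counts in the controls and 0.101 to 2.32 CPM in recovery, at least 42.1-fold higher against the floor of 3 counts over the group. It fell below the count filter and was not called without Recovery 2, Recovery 3, Recovery 4, Recovery 7, Recovery 8 or Recovery 9. The 2 that fell were P2ry12 and Gpr34. In the TGF-beta list 2 of 15 fell, Itgav and Tgfbr1, and in the list of Fc and Toll-like receptors 1 of 17 fell, Tlr4, the endotoxin receptor, by 0.50 ± 0.11 (lost without Recovery 2, Recovery 3, Recovery 9 or Control 5, adjusted p up to 0.0642). In the glucocorticoid list 1 of 15 rose, the metallothionein gene Mt1, by 0.88 ± 0.18 (25.7 to 56.2 against 18.2 to 28.8 CPM, adjusted p = 0.0142), and 1 fell, Nr3c1. The immediate early genes Egr2, Atf3 and Maff rose and Klf2 fell, of 20 tested, and the 3 that rose lost their calls in 10, 8 and 10 of 13 fits (adjusted p up to 0.118, 0.074 and 0.0924). Single genes were called in the clock list (Bhlhe40, 1 of 17) and the p53 and apoptosis list (Bax, 1 of 21), shares near the 2.36% of all genes that say nothing about these lists, and both calls were lost, in 8 and 10 fits (adjusted p up to 0.0891 and 0.101). In glycolysis and hypoxia 4 of 22 rose, Pkm, Gpi1, Tpi1 and Vegfa, and the count was 1 without Recovery 2, Recovery 3, Recovery 7 or Recovery 9 and 6 without Control 7. edgeR called 0 of 24 genes of the unfolded protein response and 0 of 24 of cholesterol synthesis, with 5 in each at an unadjusted p under 0.05, and DESeq2 called 1 in each and limma 3.

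The genes that fell were described by annotation class and length. Of 181, 133 (73.5%) were protein-coding, 20 were annotated as long noncoding and 21 (11.6%) as TEC, a class of loci whose transcripts still need experimental proof, against 88.7%, 5.3% and 2.7% of all tested genes. Of the genes that rose, 99.0% were protein-coding. The protein-coding genes that fell had a median genomic length of 82.8 kb, against 23.9 kb for all those tested and 16.4 kb for those that rose. Snx29, a sorting nexin, was at 42.4 to 81.5 CPM in recovery (median 72.7) and 107 to 208 CPM in the controls (median 141). It fell by 1.13 ± 0.18 (adjusted p = 0.00278) without overlap. Csmd3, a very long gene for a membrane protein, was at 62.6 to 108.5 against 126.7 to 158.6 CPM and fell by 0.81 ± 0.12. Fer, a cytoplasmic tyrosine kinase, Ascc3, a helicase, Disc1, a scaffold protein, and Specc1 fell by 0.75, 0.95, 1.08 and 0.70, again without overlap. Nr3c1, the glucocorticoid receptor, was at 168 to 196 against 211 to 275 CPM and fell by 0.51 ± 0.09 (adjusted p = 0.00543). Itgav, an integrin chain that takes part in activating TGF-beta, fell by 0.73 ± 0.13, with 135 to 260 against 247 to 343 CPM.

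Both sets of called genes had smaller median changes against the other references, as sets chosen on the rNLS8 comparison can have. Over the 181 genes that fell the median log2 change was -0.67 against the rNLS8 controls. It was -0.51 against the wild-type mice of the recovery diet, which share the date of those controls (34 called lower). Against those of other dates, which were still off doxycycline, it was -0.24 (0 called lower). Over the 295 genes that rose it was 1.2, 1.0 (109 called higher) and 0.73 (50 called higher). The median standard errors of the 3 comparisons were 0.14, 0.17 and 0.16 for the genes that fell. These comparisons share the recovery libraries. Snx29 stood at 110 to 197 CPM in the wild-type mice of the same diet and at 58.8 to 113 CPM in those of other dates, where the change was -0.27 (adjusted p = 0.597). Rn7s1, a noncoding RNA of the signal recognition particle, fell by 1.21 ± 0.27 against the rNLS8 controls, lost its call without Recovery 3 (adjusted p up to 0.0512), and changed by 1.48 in the other direction against the wild-type mice of other dates (adjusted p = 0.529).

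**Figure D5:**
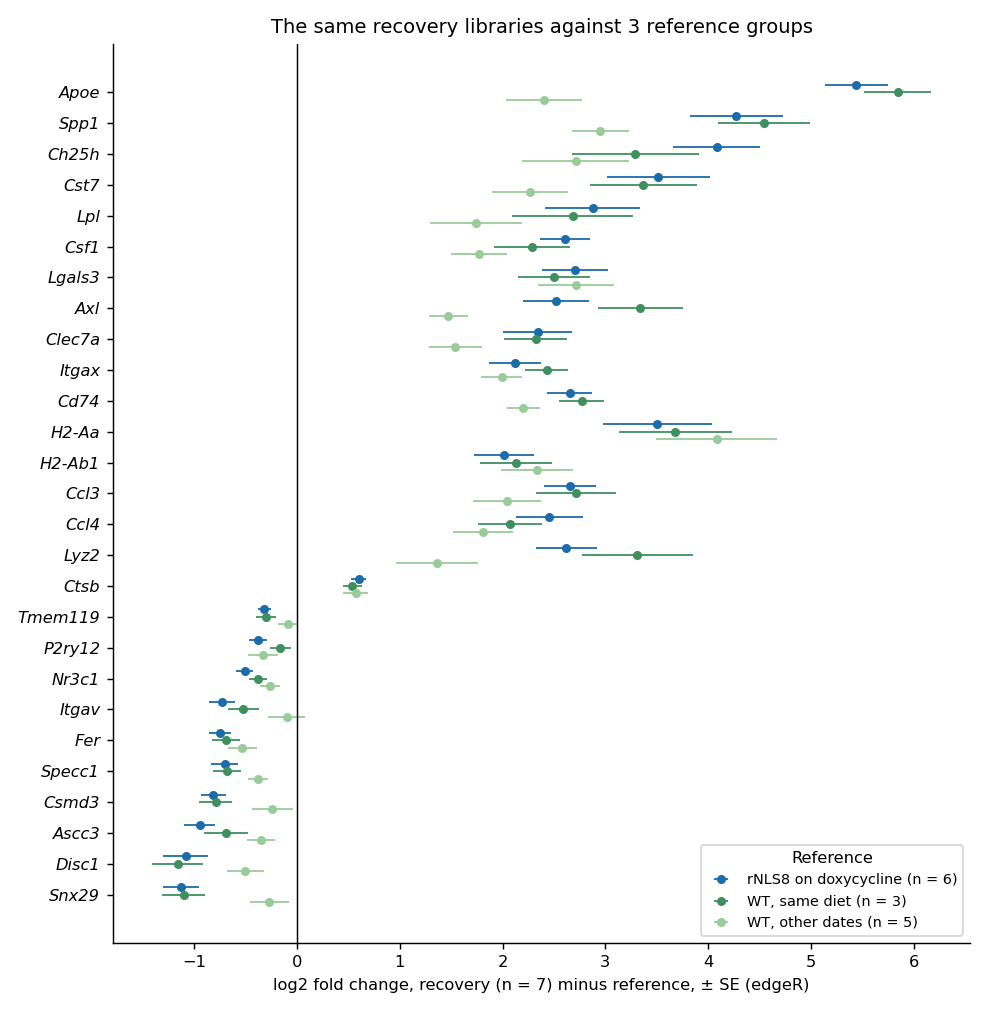
Log2 change with its standard error (x axis) of 27 genes (y axis) in recovery against 3 references (rNLS8 controls on doxycycline, wild-type mice of the same diet, wild-type mice of other dates). Apoe changed by 5.44, 5.84 and 2.40. The 3 comparisons share the 7 recovery libraries.

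Recovery was also tested directly against late disease, to ask what had moved during the week back on doxycycline. In a fit of all 35 libraries edgeR called 105 of 16151 genes (0.65%), recovery and late disease having no library date in common. The disease-associated genes were not among them where named above: Apoe differed by -0.46 ± 0.46 (adjusted p = 0.675), Spp1 by 0.59 (adjusted p = 0.568), Csf1 by -0.28 (adjusted p = 0.65) and Cd74 by 0.55 (adjusted p = 0.337). Late disease spread widely for Apoe, from 684 to 11090 CPM. Tmem119 was higher in recovery than in late disease by 0.50 (adjusted p = 0.021), and lower than in the rNLS8 controls. Its change against either set of wild-type mice did not pass the test. The mean log2 CPM of the homeostatic list overlapped, at 10.35 to 10.58 in recovery and 9.36 to 10.53 in late disease. Late disease replicate 6 was the lowest, at 9.36. Klf2, a transcription factor of quiescent cells, was higher by 1.22 (adjusted p = 0.0326), and lower than in the rNLS8 controls by a log2 change of -0.73, a call lost in 8 of 13 fits (adjusted p up to 0.0824). Some blood cell genes were higher in recovery than in late disease: Cxcr2 by 4.22 (adjusted p = 0.00461), Ly6c2 by 6.93 (adjusted p = 0.0153), Chil3 by 6.30 (adjusted p = 0.0212) and S100a9 by 6.74 (adjusted p = 0.0481). Over the tested members the median difference was 5.79 for the neutrophil list and 1.25 for the monocyte list. It was -0.622 for Ccl5, the 1 tested gene of the T and NK list.

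Both sexes were in both groups, and a test of the sex-by-group interaction called 5 of 12479 genes (0.0401%). Mrc2, an endocytic collagen receptor, was at 0.122 to 1.77 CPM in recovery females and 100 to 157 CPM in recovery males, but at 93.4 to 103 CPM in control females and 5.21 to 45.5 CPM in control males (male minus female difference of the recovery effect 9.01, adjusted p = 0.00116). Slc1a3, the glutamate transporter GLAST, was at 1500 to 2730 and 1020 to 1850 CPM in recovery females and males, and at 210 to 352 and 1540 to 1820 CPM in control females and males (difference -3.10, adjusted p = 0.00606). The low level was thus seen in the control females. Sex was taken from the deposited design table, since the labels of 2 control libraries, Control 7 and Control 8, went against it and the X- and Y-linked transcripts matched the table. With the sex of the labels 0 genes were called.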

How the data were processed

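Expected counts for 45706 genes and TPM values were deposited by the authors, who used RSEM and DESeq2 with build mm10, per the submitters' processing notes, with versions not given in the sources used here. Libraries were made with SMART-Seq and Nextera XT kits, per the labels' protocols. These kits do not mark strand, so overlapping antisense genes cannot be told apart. Expected counts (84.67% whole within 1e-06) were rounded. edgeR 4.0.16 (R 4.3.3; TMM, filterByExpr by group, quasi-likelihood F test, sex as a covariate) was run on the 13 libraries, with adjustment over all 12479 genes tested and calls at 0.05. The fit was tested on simulated data. CPM values were scaled by TMM over all 35 libraries. DESeq2 1.42.0 and limma 3.58.1 (log2 of the deposited TPM plus 1 or 0.1, genes at 1 TPM or more in 6 libraries) were alternatives. Symbols, positions and gene types came from GENCODE vM21, and 563 genes had none. Other libraries were not used here except as named references.

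Named genes were the 12 largest changes in each direction among called genes with at least 10 CPM in the higher group, no overlap and no predicted name, up to 4 genes of smallest p per list, and 18 reference genes. A further 54 members were named after their values were seen. The members and the 38 gene lists were chosen with earlier results of these data known. Each library is numbered as a sample of its own in the labels, and p-values measure the spread between these samples. No pair agreed within sampling noise (chi-square per gene 29.9 to 83.4). Groups of 7 and 6 were compared with exact permutation tests for single library measures. Counting precision refers to sequenced fragments, since no molecular identifiers are named. Results for a few genes are not reported here.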

Additional observations from a re-analysis of the deposited data

Results flagged for a closer look

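In 250 groups of values (lists, library measures and named genes), 23 had a highest or lowest library standing apart from the others by Dixon's criterion; chance flags about 1 in 20 groups. Among list means (log2 CPM), Recovery 4 was apart in the chemokine list (4.59) and the glucocorticoid target list (6.42), Recovery 7 in the oligodendrocyte list (3.76), Control 8 in the complement list (6.57), Control 7 in the B cell list (3.54), and Control 6 in the monocyte list (0.62) and the astrocyte list (2.96). The Control 6 monocyte value goes with its S100a9 level of 55.2 CPM, the highest of the controls.

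Among single genes of recovery (CPM), Recovery 9 was apart in Cd63 (911), Tyrobp (1617), Ctsd (43530), H2-K1 (1408) and Grn (6303), Recovery 7 in Dnajb1 (100.8), Recovery 3 in Lpl (511) and Pcna (33.8), Recovery 5 in Csf1r (16490) and Recovery 2 in Ctsa (2714). Among the controls, Control 6 was apart in Fcrls (910.7), Control 9 in Ccl9 (143), Control 5 in Tpi1 (118), Control 7 in Rps15a (36.4) and Trem2 (1650), and Control 4 in Cd52 (97.2).

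The effect of recovery differed between males and females in 5 genes by edgeR's interaction test, as male minus female on the log2 scale: Mrc2 by 9.01 (adjusted p = 0.00116), Slc1a3 by -3.10 (adjusted p = 0.00606), Ranbp3l by -5.96, Per2 by 12.36 and Notch4 by 6.15 (adjusted p = 0.0398 each). Per2 had 0 counts in all 3 control males, so its size is not a bound. The interaction test called 0 genes with the sex of the labels and 103 with DESeq2.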

How the results depend on the processing

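The counts of 295 genes higher and 181 lower depended on the method. DESeq2 gave 610 and 442, limma on log2(TPM + 1) gave 1350 and 88, limma on log2(TPM + 0.1) gave 1319 and 80, no filter on low counts gave 470 higher, and all 35 libraries in the fit gave 522 higher. A 2-fold minimum left 166 and 47. Without 1 library the counts ran from 150 to 368 and from 80 to 257. The numbers of replicates do not pair the samples (correlations of deviations of the 5 shared numbers -0.035 to 0.083), and a replicate block gave 62 and 13. The wild-type mice of the same diet gave 94 lower, and those of other dates 86 higher and 3 lower. Chosen after seeing the data were a covariate for the TPM share beyond the table (7 and 1), the neutrophil list mean as a covariate (2 and 0) and leaving out Recovery 3 and Control 6 together (163 and 59). The unscaled TPM fit called 93.9% of its genes higher, against 62.0% in edgeR and 59.8% after TMM scaling (389 and 261), and its median gene moved by 0.19. The sex-by-group interaction gave 0 genes with the sex of the labels and 103 with DESeq2. The cause of these shifts was not tested. Values that turned direction were Rn7s1 (1.48), Zfp595 (0.022), Wdr31 (0.034) and Tgfbr1 (0.037) against the wild-type mice of other dates, Fcrls (-0.49) against those of the same diet, Cenpe (-2.64) with the TPM share and S100a9 (-0.17) and S100a8 (-0.11) with the neutrophil mean. Of 142 named genes with a test, 38 were tested and not called in at least 1 fit that leaves out a library, and 0 turned direction in those fits. Fcnb, P2ry14 and Vegfa are not among the 38 and fell below the count filter in 6, 6 and 7 of the fits.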
